A study of Mus musculus with 8 samples.

Results

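The NRF2 antioxidant genes are the transcription factor NRF2 (gene Nfe2l2), its inhibitor Keap1, and 8 genes that NRF2 is known to activate: Nqo1, Gclc, Gclm, Hmox1, Txnrd1, Srxn1, Gsr and Slc7a11. The members were chosen by name: a probe was taken when its current or older gene symbol was one of these 10, which gave 20 of the 41174 probes on the array. Of these 20 probes, 16 passed a filter on dim signal and covered 9 of the 10 genes. Those 16 were well above background on both arrays of all 4 groups, so none was admitted through the group in which it was high. Slc7a11 did not pass.

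RNA came from the livers of C57BL/6 mice, labelled female and 6 months old, on one-colour Agilent arrays. The mice labelled Dicer1 KO carried an Albumin-Cre transgene and 2 floxed Dicer1 alleles, so that Cre, under the albumin promoter, deletes Dicer1 in hepatocytes. Whether other liver cells kept the gene was not measured. The wild-type (WT) mice were littermates with the same floxed alleles and no Cre. Each genotype received, by intraperitoneal injection at 2 ml/kg, either the vehicle dimethylsulfoxide or N-ethyl-N-nitrosourea (ENU), an alkylating mutagen, once at 120 mg/kg, and treated mice were measured at 15 days. The day is not given for vehicle mice, nor is the number of mice behind an RNA. This gave 4 groups of 2 arrays: WT vehicle, WT ENU, KO vehicle and KO ENU.

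The arrays a and b of a group differed by about as much as repeated spots of a probe do. Over 156 to 181 probes spotted at least 5 times and above background, their median standardised difference was 0.669 to 0.844, where spot noise alone gives 0.688. With dim probes included it was 0.866 to 0.924 within groups and 6.25 to 18.8 between them. The arrays of a group were therefore averaged and counted as 1 RNA sample, and a difference between 2 groups has no replicate check. All ENU arrays lay on 1 slide and all vehicle arrays on another, so ENU and slide cannot be told apart. The KO arrays took positions 1 and 2 of each slide and the WT arrays 3 and 4, so genotype and position cannot be told apart either. Between 54.7% and 69.3% of spots were well above background, and the 75th percentile signal was 437 to 524 on WT and 629 to 681 on KO arrays. The 2 Dicer1 probes read lower in KO, by 5.50-fold and 1.41-fold with vehicle and by 2.85-fold and 1.19-fold with ENU. The first of them was dim in KO, at -4.32 with vehicle and -4.02 with ENU, in log2 units relative to the 75th percentile signal. Its signal there may lie at background, so its folds may not be exact. Which exons Cre removes is not stated, so these probes may lie outside them and check the labels only in part. The labels say female, yet 4 of 4 Y-linked genes had a probe above background on all 8 arrays, so the label for sex is in doubt.

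As background, NRF2 is a basic leucine zipper transcription factor that is made and destroyed continuously. KEAP1 is the adaptor that hands NRF2 to a cullin 3 ubiquitin ligase, and when electrophiles or oxidants modify KEAP1 cysteines, NRF2 escapes, enters the nucleus, pairs with a small MAF protein and binds antioxidant response elements. Its targets make and recycle glutathione, reduce thioredoxin and peroxiredoxins, remove quinones and break down heme, and in the liver they serve defence against drugs and carcinogens.

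The core of the antioxidant response element was looked for as TGACNNNGC and TGAGNNNGC, on both strands, in RefSeq windows of 250 bases before to 50 after the start site (GRCm38.p6). For 7 of the 10 genes there were 9 windows. A match lay in 1 window each of 5 genes: Nfe2l2, Gclm, Txnrd1 (which had 3 windows), Srxn1 and Slc7a11. Of all 32851 windows, 27.8% held one. Keap1 and Nqo1 held none in theirs, which says only that these letters are not in those windows. Gclc, Hmox1 and Gsr had no window. The matches before a start site are shown because NRF2 is known to bind such elements, with the core in capitals and the strand of the gene read 5′ to 3′.

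Nfe2l2, 240 bases before the start, chr2:75704875-75704913, minus strand: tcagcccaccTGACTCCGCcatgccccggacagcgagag
Gclm, 134 bases before, chr3:122245403-122245451, plus strand: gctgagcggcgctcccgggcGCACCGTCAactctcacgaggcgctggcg
Txnrd1, 92 bases before 1 of its 3 starts, chr10:82859094-82859142, plus strand: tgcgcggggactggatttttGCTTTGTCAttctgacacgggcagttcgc
Srxn1, 158 bases before, chr2:152105346-152105394, plus strand: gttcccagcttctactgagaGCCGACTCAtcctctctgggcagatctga
Srxn1, 45 bases before, chr2:152105459-152105507, plus strand: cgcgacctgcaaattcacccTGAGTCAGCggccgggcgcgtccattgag
Slc7a11, 97 bases before, chr3:50443682-50443730, minus strand: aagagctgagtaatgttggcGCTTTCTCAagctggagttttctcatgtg

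The Srxn1 match at 45 bases also holds the AP-1 motif TGACTCA on the other strand, which 5.2% of all windows hold. One more Srxn1 match starts 29 bases into the transcript.

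The 9 measured genes did not shift together with genotype. Levels below are log2 units relative to the 75th percentile signal of the same array, so a difference of 1 is 2-fold. A limma model of genotype plus treatment, which leaves 1 residual degree of freedom over the 4 RNA samples, tested each gene among 18153, with Benjamini-Hochberg adjustment. The words rose and fell are kept for an adjusted p under 0.05. In KO, 1 member rose (Nqo1), 1 fell (Gclc) and the other 7 did not pass. Of all genes tested, 16.9% rose and 15.3% fell, 32.2% together, so 2 of 9 is not above the share among all genes. The median difference was -0.27 over the members and -0.12 over all genes. Of all calls, 52.4% were higher in KO, a share that was 36.5% with normexp background correction and 35.9% with median centring. It was 58.6% with quantile normalization and 54.4% to 59.9% without any 1 array.

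ENU gave 0 calls among all 18153 genes in this fit (0% called), with 3986 genes (22%) and 2 of the 9 members, Hmox1 and Gclm, at an unadjusted p under 0.05. The members' median ENU difference was 0.23, against -0.05 over all genes. As single differences, 2 members lay past 2-fold in KO against WT on vehicle (Nqo1 higher, Gclc lower), where 28.4% of all genes did, 17.3% higher and 11.1% lower. After ENU 2 did (Gclc and Hmox1, both lower), where 30.5% of genes did, 16.2% higher and 14.2% lower. For ENU against vehicle, 2 lay past 2-fold in WT (Gclc higher, Hmox1 lower), beside 12.7% of genes, 7.18% higher and 5.49% lower. In KO 1 did (Hmox1, lower), beside 9.75% of genes, 4.34% higher and 5.42% lower.

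**Figure D1:**
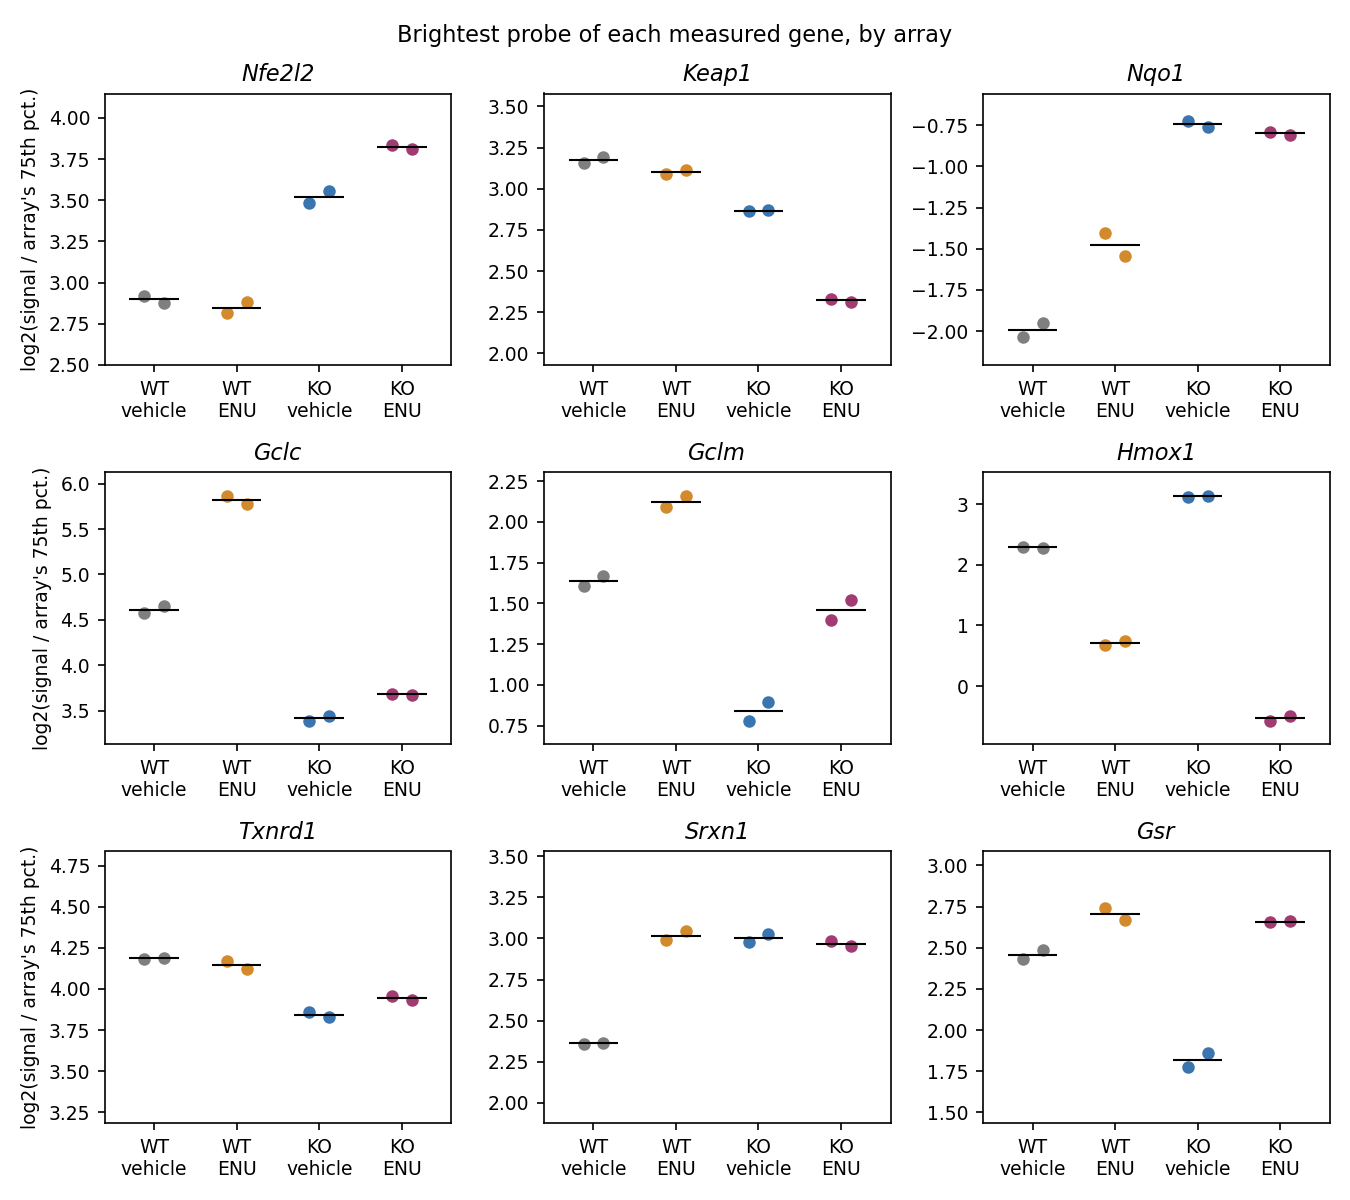
Level of the brightest probe of the 9 measured genes, in log2 units relative to that array's 75th percentile signal (vertical axes differ in range), for the 4 groups. Points are the 2 arrays of a group, which differ by at most 0.143, and lines their mean; Gclc is lowest in both KO groups and Hmox1 in both ENU groups.

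Nfe2l2 itself was higher in KO in both treatments, short of the threshold. Its brightest probe (chr2:75519430-75519489, minus strand, mm7, at the 3′ side of the other Nfe2l2 probes) read 2.92 and 2.88 on the WT vehicle arrays and 2.81 and 2.88 on WT ENU. It read 3.49 and 3.56 on KO vehicle and 3.83 and 3.81 on KO ENU. The 4 KO arrays all lay above the 4 WT arrays. The KO excess was 1.54-fold with vehicle and 1.97-fold with ENU, and over the 4 RNA samples the difference was 0.80 ± 0.201 (SE; limma adjusted p = 0.0526). It passed with normexp (0.86, adjusted p = 0.0207) and with quantile normalization (1.16, adjusted p = 0.0367), and was 0.36 (adjusted p = 0.194) with the 4 probes averaged.

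The second probe for the RefSeq transcript, A_52_P396436, gave 1.41-fold and 1.71-fold. The 2 other Nfe2l2 probes were designed on cDNA clones and lie upstream, at 75544410 to 75544469 and 75535606 to 75535665. A_52_P1107697 was also higher in KO, 1.54-fold and 1.37-fold. A_52_P523835, the dimmest of the 4, went the other way: KO was below WT by 1.04-fold with vehicle and by 1.96-fold with ENU, and its KO vehicle arrays read -1.67 and -2.32. The files do not say whether these clones share exons with the Nfe2l2 messenger RNA.

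Keap1, the inhibitor, was lower in KO in both treatments and did not pass. Its probe spans 441 bases (chr9:21107406-21107846, minus strand, mm7), more than a probe's length, and so crosses a splice junction. It read 3.16 and 3.19 on WT vehicle, 3.09 and 3.11 on WT ENU, 2.86 and 2.87 on KO vehicle and 2.33 and 2.31 on KO ENU. The KO arrays lay below all WT arrays, by 1.24-fold on vehicle and 1.72-fold after ENU; the fitted difference was -0.54 ± 0.216 (limma adjusted p = 0.127). ENU against vehicle differed by -0.07 in WT and by -0.54 in KO, a pair of values from single samples.

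Among the genes of glutathione synthesis, Gclc fell in KO and was the member with the largest difference. Gclc encodes the catalytic subunit of glutamate-cysteine ligase, the rate-limiting enzyme of glutathione synthesis. Its probe (chr9:77835053-77835112, plus strand, mm7) read 4.57 and 4.65 on WT vehicle, 5.86 and 5.78 on WT ENU, 3.39 and 3.44 on KO vehicle and 3.69 and 3.68 on KO ENU. No KO array reached any WT array. The KO deficit was 2.29-fold with vehicle and 4.40-fold with ENU. Over the 4 RNA samples Gclc fell by 1.67 ± 0.299 (limma adjusted p = 0.0275), lower in both pairs. With quantile normalization the difference was -1.17 and the adjusted p 0.0624, the one of 14 alternatives with averaged arrays that lost the call.

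After ENU, Gclc was 2.31-fold higher than on vehicle in WT, and 0.27 log2 units higher in KO. The ENU difference in WT exceeded that of most genes: 8.37% of genes had a difference at least as large in either direction, and in KO 58.6% did. The difference between the genotypes in this ENU difference was 0.94 and was not tested, because it is the fit's residual.

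Gclm, the modifier subunit that raises the ligase's affinity for its substrate, had the same sign as Gclc in all 4 differences between groups; its step was the smaller in 3 of them and the larger for ENU in KO. Its probe crosses an intron (chr3:122027477-122030112, plus strand, mm7). It read 1.61 and 1.67 on WT vehicle, 2.09 and 2.16 on WT ENU, 0.78 and 0.90 on KO vehicle and 1.40 and 1.52 on KO ENU. The KO deficit was 1.74-fold with vehicle and 1.59-fold with ENU, with a fitted difference of -0.73 ± 0.183 (limma adjusted p = 0.0518). It passed with normexp (-0.68, adjusted p = 0.0258), with median centring (-0.94, 0.0279) and with probes of each gene averaged (0.0494). ENU against vehicle was 1.40-fold higher in WT and 1.53-fold higher in KO; whether the steps differ was not tested. Fitted over both, it was 0.55 ± 0.183 (limma adjusted p = 0.213).

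Slc7a11 encodes xCT, the antiporter subunit that brings in cystine for glutathione. It had 4 probes (between 50490342 and 50567484 on chromosome 3, mm7), and 3 of them were not well above background on any array. The fourth, A_52_P298824, was above background on 1 of the 2 KO ENU arrays, at -3.93, while the other KO ENU array read -7.26 and the remaining groups -6.13 to -7.29. No fold is given for a gene at this signal.

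Gsr, glutathione reductase, returns oxidised glutathione to its reduced form with NADPH. Its brightest probe (chr8:32465796-32465855, plus strand, mm7) read 2.43 and 2.48 on WT vehicle, 2.74 and 2.67 on WT ENU, 1.78 and 1.86 on KO vehicle and 2.66 and 2.66 on KO ENU. KO vehicle was the low group and the other 3 lay close together. The KO deficit was 1.56-fold with vehicle and 1.03-fold with ENU, and ENU against vehicle was 1.79-fold higher in KO and 1.19-fold higher in WT. The fitted genotype difference was -0.34 ± 0.234 (limma adjusted p = 0.307). The other 2 Gsr probes gave 1.73-fold and 1.70-fold lower on vehicle, and 2.07-fold higher with ENU in KO for A_52_P91604. The 3 probes lie within 32465210 to 32465855 and 2 of them overlap, so they share sequence.

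Hmox1 had the largest ENU difference of the members. It encodes heme oxygenase 1, which splits heme into biliverdin, iron and carbon monoxide; in liver it is also abundant in Kupffer cells, the resident macrophages. Its probe (chr8:73642229-73642288, plus strand, mm7) read 2.29 and 2.28 on WT vehicle, 0.67 and 0.74 on WT ENU, 3.12 and 3.13 on KO vehicle and -0.57 and -0.48 on KO ENU. KO held both the highest and the lowest level. ENU against vehicle differed by -1.58 log2 units in WT and by -3.65, or 12.6-fold, in KO, differences reached by 4.18% and 0.193% of genes.

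Over the 4 RNA samples the Hmox1 ENU difference was -2.62 ± 0.554 (limma adjusted p = 0.165; 0.122 to 0.239 over 14 alternatives), lower in both pairs. KO against WT was 1.79-fold higher on vehicle and 2.35-fold lower after ENU, so the fitted genotype difference was near zero, -0.20 ± 0.554 (limma adjusted p = 0.8). The change between those 2 genotype differences was 2.07, a size reached by 1.98% of genes, and could not be tested with 1 sample a group. Slide and ENU cannot be told apart here.

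Kupffer cell and macrophage markers had a median ENU difference of 0.87 in WT and 0.90 in KO, of opposite sign to that of Hmox1. For ENU 0 of these 12 markers passed in limma, as for every gene, with 11 at an unadjusted p under 0.05, beside 22% of all genes. For genotype 8 of the 12 rose in KO (66.7%) and 0 fell, where 16.9% and 15.3% of all genes did. Their summed level, in units of the array's 75th percentile signal, was 91.8 with vehicle and 153 with ENU in WT, and 214 and 387 in KO, and all 12 were measured. Lyz2 weighed most in the KO sums, as the brightest of the 12 there (6.33 and 7.26 log2, against 3.99 and 4.85 in WT). Clec4f (0.39), Timd4 (0.07), Vsig4 (0.45) and Cd5l (0.62) did not pass for genotype. The part of these cells in the Hmox1 levels was not tested. In whole liver RNA, fewer cells of a type and less RNA per cell cannot be told apart.

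Nqo1 rose in KO. It encodes a flavoenzyme that reduces quinones in one step without releasing radicals, and its transcript is a common readout of NRF2. Its probe (chr8:105988683-105988742, minus strand, mm7) read -2.04 and -1.95 on WT vehicle, -1.40 and -1.55 on WT ENU, -0.73 and -0.76 on KO vehicle and -0.79 and -0.81 on KO ENU. All KO arrays lay above all WT arrays. The KO excess was 2.38-fold with vehicle and 1.60-fold with ENU, and over the 4 RNA samples Nqo1 rose by 0.96 ± 0.232 (limma adjusted p = 0.0478), higher in both pairs. The call lies at the threshold: it was lost without any 1 of the 8 arrays (adjusted p 0.0556 to 0.0787), and with normexp (0.61, 0.0543), quantile normalization (0.0702), median centring (0.0607) and no filter (0.0612). ENU against vehicle was 1.43-fold higher in WT and 1.04-fold lower in KO.

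Neither of the 2 members of the thioredoxin system passed for genotype. Txnrd1, the cytosolic selenoenzyme that reduces thioredoxin, read 4.19 and 4.19 on WT vehicle, 4.17 and 4.12 on WT ENU, 3.86 and 3.83 on KO vehicle and 3.96 and 3.94 on KO ENU (chr10:82438991-82439050, plus strand, mm7). KO was 1.27-fold and 1.15-fold lower, with a fitted difference of -0.27 ± 0.184 (limma adjusted p = 0.304) that turned to 0.23 with quantile normalization. It was the steadiest of the measured members across ENU, with differences of -0.04 in WT and 0.10 in KO.

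Srxn1 encodes sulfiredoxin, which repairs over-oxidised peroxiredoxins. Its brightest probe (chr2:151852040-151852099, plus strand, mm7) read 2.36 and 2.36 on WT vehicle, 2.99 and 3.04 on WT ENU, 2.98 and 3.03 on KO vehicle and 2.98 and 2.96 on KO ENU. WT vehicle was the low group and the other 3 lay together. KO exceeded WT by 1.56-fold with vehicle and was 1.03-fold below it with ENU, while ENU was 1.57-fold higher than vehicle in WT and 1.02-fold lower in KO. The fitted genotype difference was 0.30 ± 0.251 (limma adjusted p = 0.398). The other 2 probes, which overlap each other, read larger ENU steps in WT, 2.19-fold for A_51_P330125 and 2.35-fold for A_52_P593200, and were also higher in KO on vehicle, 1.54-fold and 1.98-fold.

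**Figure D2:**
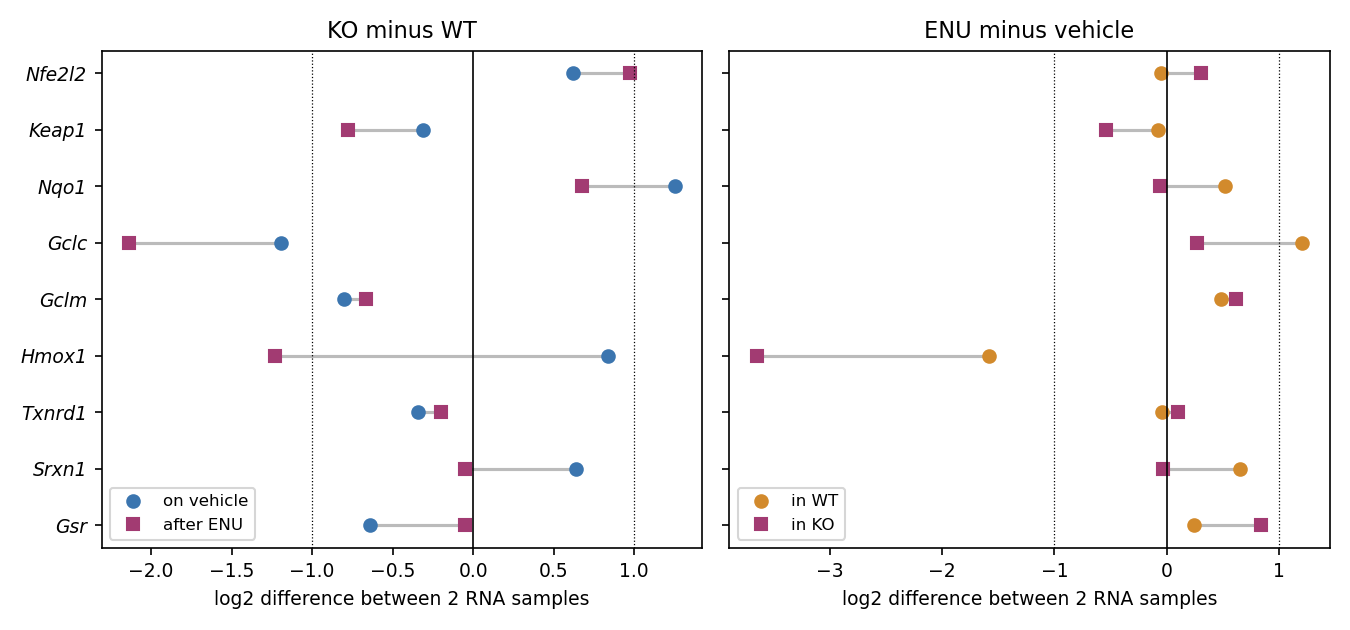
Log2 differences of the 9 measured genes between pairs of RNA samples: KO minus WT on vehicle and after ENU (left), and ENU minus vehicle in WT and in KO (right). Dotted lines mark 2-fold; Gclc lies past 2-fold lower in both genotype differences, and Hmox1 lies on opposite sides of 0 in them (0.84 and -1.23).

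**Figure D3:**
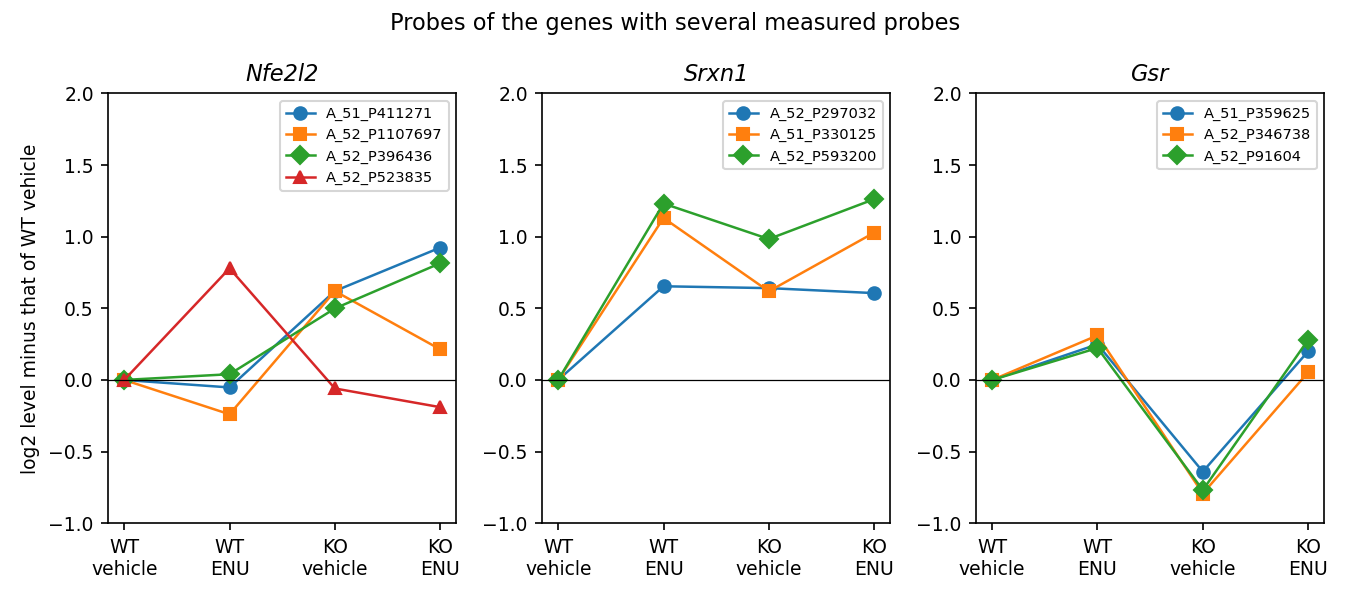
Group means of every measured probe of Nfe2l2, Srxn1 and Gsr, as the log2 level minus that of the same probe in WT vehicle; lines join the 4 values of a probe. The 3 Gsr probes follow one course with KO vehicle lowest, while the Nfe2l2 probe A_52_P523835 is highest in WT ENU (0.78) and departs from the other 3.

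Gclc, the member with the largest genotype difference, was set beside all 18153 genes to find those most like it. The measure was the root mean square difference over the 4 RNA samples after centring each gene on its own mean. The 5 nearest were Hsd3b7 (0.05 log2), a bile acid synthesis enzyme, then Inca1 (0.05), Slc25a23 (0.06), Tfpi2 (0.09) and Gpx6 (0.09). Gpx6 was dim, at -5.27 in KO vehicle and -4.92 in KO ENU, where its signal may lie at background. Hsd3b7 differed between KO and WT by -1.08 on vehicle and -2.18 after ENU, beside the 2.29-fold and 4.40-fold lower levels of Gclc. With 4 points from 4 groups this describes a shared course in these samples and nothing more.

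Beyond the members, 70 other genes of redox defence were read from 7 lists, and all 70 were measured: 9 rose (12.9%) and 23 fell (32.9%) in KO. Of all 18153 genes 16.9% rose and 15.3% fell, the shares beside which the counts of each list below stand. The lists are small and were not tested as sets. Among 11 regulators and partners of NRF2, 1 rose and 0 fell. That was Trim16, a ubiquitin ligase, at least 2.53-fold higher with vehicle (the WT signal there was not well above background) and 1.38 log2 units higher after ENU; it did not pass with normexp or with probes averaged. Nfe2l1, the NRF2 relative, differed by -0.04 ± 0.238 (limma adjusted p = 0.895).

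In glutathione synthesis and use, 5 of 13 rose (38.5%) and 2 fell (15.4%, a share close to that of all genes). One of the 5, Ggt1, the surface enzyme that starts glutathione breakdown, was not well above background in either WT group and passed the filter only through KO, where it is high. Without it 4 of 12 rose, and 8 of 69 over all lists. For Ggt1 KO exceeded WT by at least 2.24-fold with vehicle and at least 5.22-fold with ENU. The secreted peroxidase Gpx3 rose by 2.65 ± 0.209 (limma adjusted p = 0.0105), the export pumps Abcc4 and Abcc1 by 2.14 and 1.72, and the epithelial peroxidase Gpx2 by 1.26. The main cytosolic peroxidase Gpx1 fell by 1.05 and the microsomal transferase Mgst1 by 1.67. Slc3a2, the heavy chain that pairs with xCT, differed by -0.10 (limma adjusted p = 0.681). The list's median was -0.10, turning to 0.51 with quantile normalization.

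Of 11 thioredoxin and peroxiredoxin genes 6 fell (54.5%) and 0 rose, with a median of -0.85. The number that fell was 9 with normexp and with median centring, 7 with averaged probes, 3 with no filter and 2 with quantile normalization, where the median was -0.41. It was 3 to 5 without 1 array, and 3 without KO ENU b, WT ENU a, WT ENU b or KO vehicle b. The mitochondrial reductase Txnrd2 fell by 1.45 and Txnrd3 by 1.35, unlike Txnrd1, whose own difference did not pass; the difference between them was not tested. Prdx6 fell by 1.24, the mitochondrial thioredoxin Txn2 by 1.06, Prdx5 by 0.99 and the cytosolic thioredoxin Txn1 by 0.84. Prdx2 differed by -0.24 (limma adjusted p = 0.344).

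Genes that remove superoxide and peroxide fell in 3 of 4 cases: catalase (Cat) by 1.87 ± 0.184 (limma adjusted p = 0.0123), and the superoxide dismutases Sod1, by 1.44, and Sod2, by 1.21. The extracellular form Sod3 differed by 0.58 (limma adjusted p = 0.0822). With quantile normalization 2 of the 4 fell. In NADPH supply 1 of 6 rose and 2 fell. G6pdx, which opens the pentose phosphate pathway, rose by 1.18, while malic enzyme Me1 fell by 2.26 and isocitrate dehydrogenase Idh1 by 1.56; Tkt differed by -0.22 (limma adjusted p = 0.396).

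Of 19 detoxification genes 2 rose and 7 fell. Gsta2, a glutathione transferase, rose by 1.83 and the carbonyl reductase Cbr3 by 1.62. Aldehyde oxidase Aox1 fell by 2.18, Gsta3 by 1.53, the exporter Abcc3 by 1.49, Gstm4 by 0.99 and Nqo2 by 0.88; Gstp1 fell too, with differences of -1.38 on vehicle and -1.62 after ENU. Without any 1 array 5 of the 19 fell. Transferase genes of a class are close in sequence, so their probes may share signal. Osgin1 differed by 0.10 (limma adjusted p = 0.768). The list's median was -0.32, and 0.05 with quantile normalization. In heme and iron handling 3 of 6 fell: Blvrb, which reduces biliverdin, by 1.68, the ferritin chain Fth1 by 0.91 and Fech, which inserts iron to make heme, by 0.96. Blvra differed by -0.31 (limma adjusted p = 0.262). Without 1 array 1 or 2 of the 6 fell (1 without KO ENU b, WT ENU a, WT ENU b or KO vehicle b). With quantile normalization or no filter 1 fell, and with median centring 4.

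**Figure D4:**
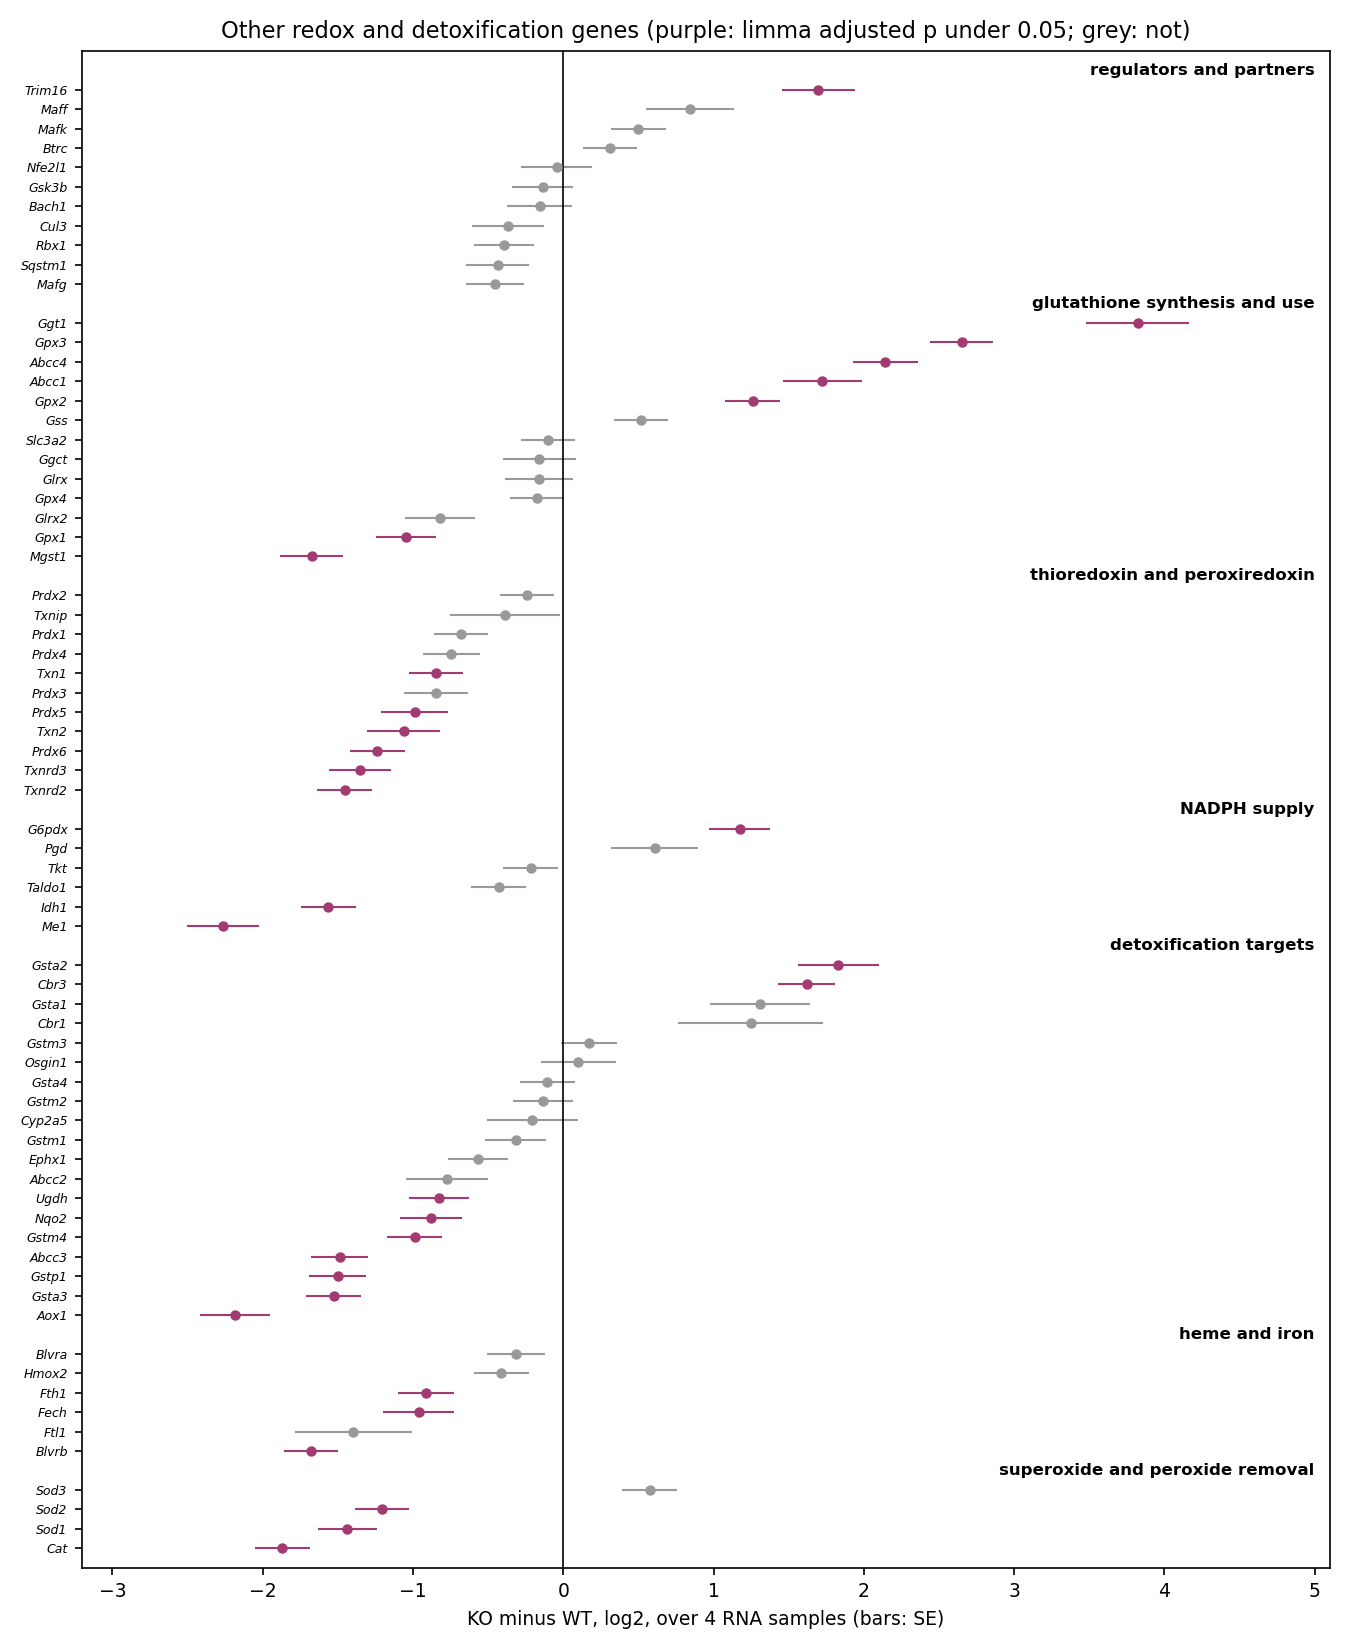
Fitted KO minus WT difference (log2, with SE) of 70 other redox and detoxification genes in 7 lists; purple marks a limma adjusted p under 0.05 over all genes. The thioredoxin and peroxiredoxin genes all lie below 0, and the glutathione genes spread from -1.67 (Mgst1) upward; Ggt1 and Trim16 were not well above background in WT vehicle, so their positions are not exact.

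Markers of liver cell types were read for genotype beside these genes. Of all genes 16.9% rose and 15.3% fell, the shares beside which these counts stand. Of 9 measured hepatocyte markers 5 fell and 0 rose, with a median of -0.84, and their summed level was 2356 with vehicle and 2395 with ENU in WT, and 1424 and 1523 in KO, in units of the 75th percentile signal. The number that fell was 3 without KO ENU b or WT ENU b, 2 with quantile normalization (median -0.45) and 8 with median centring. All 8 cholangiocyte and progenitor markers and all 7 measured neutrophil markers rose. Of the latter, Elane was not above background in either WT group and passed the filter only through KO, and without it 6 of 6 rose. Epcam, Cldn4 and Ngp were not above background in WT vehicle, nor Camp in WT ENU. With normexp 6 of the 8 and 6 of the 7 rose, and without WT ENU a 7 of the 8 cholangiocyte markers did. Of 8 stellate cell markers 3 rose (37.5%), and 5 did with normexp or quantile normalization. Of 8 endothelial markers 1 fell (12.5%, below the share of all genes). That call was lost without any 1 array, and the number became 4 with normexp or median centring. In summed level, cholangiocyte markers went from 5.84 and 7.98 in WT vehicle and ENU to 64.4 and 63.0 in KO. Most of that sum was Spp1: the other 7 went from 1.66 and 2.28 to 14.5 and 18.9. Neutrophil markers went from 4.42 and 6.88 to 35.1 and 48.6. The largest part of that sum was S100a9 in every group (1.76 and 2.44 log2 in WT vehicle and ENU, 4.72 and 5.13 in KO). The part of the cell makeup in the differences of Gclc, Nqo1 and the redox lists was not tested.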

How the data were processed

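Liver RNA of 4 groups was measured on 8 arrays. The deposited values are spot intensity read by Agilent Feature Extraction, version 10.7.1.1 per the file headers (10.5.1 per the submitters' processing notes): the processed signal, which that program had background-subtracted, and the mean signal and local background. Probe coordinates are the files', on mm7. Processed signals were divided by the array's 75th percentile and taken to log2. Control spots and flagged outliers were dropped, repeated spots averaged, and probes kept when well above background on both arrays of at least 1 group; the brightest probe stood for a gene. No spot was saturated. Gene names were updated through RefSeq (GRCm38.p6) by accession (22951 probes), symbol (6659) or synonym (3109), and 8455 kept the file's name. A bound ("at least") compares the brighter group with the higher of the probe's signal and the lowest signal above background, per array, and holds for this scaling.

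R 4.3.3 and limma 3.58.1 were used. The code of the fit was run on simulated data, which does not check the p-values for these data. The fit's only residual for a gene is how far the ENU difference departs between genotypes. This is moderated by limma with the residuals of all genes. The fit's p-values rest on that and measure no spread between replicate RNA samples, as no group had any. Named beyond the members were pathway genes that passed (up to 8 a list), the least changed gene of each list and the 5 genes nearest to Gclc. Members, lists and tests were chosen with earlier results of these data known. Alternatives were normexp (offset 50), quantile normalization, median centring, averaged or separate probes, no filter, leaving out an array, and fits of 8 arrays.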

Additional observations from a re-analysis of the deposited data

Results flagged for a closer look

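Hmox1 stood on opposite sides of 0 in KO against WT: 0.84 log2 units higher on vehicle and -1.23 after ENU, in every pairing of arrays. Srxn1 did so with a small second value, 0.64 on vehicle and -0.0477 after ENU. For ENU against vehicle, Nqo1 differed by 0.52 in WT and -0.0551 in KO, and Txnrd1 by -0.0422 and 0.10. None of these differences between groups was tested, since each group is 1 RNA sample, and the smaller values are within the 0.143 by which 2 arrays of a group differed at most.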

How the results depend on the processing

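The number of arrays, counted as 4 RNA samples with 1 residual degree of freedom, limits every test. For KO against WT, 3062 genes rose and 2778 fell. Normexp gave 4170 lower genes, 2 members lower (Gclc and Gclm) and 3 ENU calls in place of 0. The 1 member higher with normexp was Nfe2l2 in place of Nqo1. Fewer genes lay past 2-fold, 2683 for KO against WT on vehicle (1 member in place of 2). After ENU 3299 did (3 members in place of 2), and for ENU against vehicle 911 in WT and 700 in KO. Median centring gave 4884 lower genes, 0 members higher and 2 lower, since it moved the median genotype difference of all genes from -0.12 to -0.33. Quantile normalization gave 0 members lower, and Txnrd1 turned from -0.27 to 0.23. Here too the 1 member higher was Nfe2l2 in place of Nqo1. Averaging probes gave 2 members lower. With no filter 0 members were higher and 3229 genes lay past 2-fold for ENU in KO. Leaving out 1 array gave 1680 to 2401 lower genes (1680 without KO ENU b, 1762 without WT ENU b) and 0 members higher in all 8 cases. Apart from that shift under median centring, the cause of these changes was not tested.

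Taking the 8 arrays as replicates, which sets conditions against array noise, gave 5714 higher and 7703 lower genes, 2 members higher and 5 lower, and 9802 genes and 5 members called for ENU. The arrays share letters a and b, which name no shared source; with the letter as a replicate block the counts were 5498 and 7407, 2 and 4, and 8785 and 4. Fitted member effects kept direction and side of the threshold in 251 of 288 recomputations, with 23 gaining a call, 13 losing one and 1 turning. That count does not measure stability, since only the genotype effects of Nqo1 and Gclc had a call to lose. Over the 14 alternatives with averaged arrays, Nqo1 kept its call in 2 and Gclc in 13, and no ENU effect of a member was called. The slide could not be added as a term, being the same as the treatment.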

Other observations

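These ENU differences of other redox genes were picked after their values were seen, and slide and ENU cannot be told apart in them. Gstm4, a glutathione transferase, was 1.79 log2 units higher with ENU in WT and 1.66 in KO. Sod3, the extracellular superoxide dismutase, was 1.42 and 1.53 higher. Osgin1, an oxidative stress response gene, was 1.49 and 0.81 higher. Cyp2a5, a cytochrome P450 of the hepatocyte, was lower with ENU, with differences of -2.27 in WT and -1.32 in KO. Txnip, which binds thioredoxin, differed by -1.24 in WT and 0.02 in KO, and Cbr1, a carbonyl reductase, by -0.83 in WT and 0.93 in KO.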
